A study of Homo sapiens with 27 samples.

Results

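The comparison described here set 293T cells making the G2087E form of ARID1A against 293T cells making wild-type ARID1A (WT). It used the 3 G2087E and 3 WT libraries, 6 of the 27 in the series, and the 20971 of 67130 listed genes that had at least 10 counts in at least 3 of the 6 libraries. Cells of both groups lacked their own ARID1A through a knockout and stably expressed a Flag-tagged ARID1A, as G2087E in the one group and as wild type in the other. 293T is a human embryonic kidney line that carries the SV40 large T antigen. The labels give lentiviral delivery in a treatment text that names Huh7 cells with WT or V2084D, and the same text stands on these 293T samples. The 4 other groups of 293T libraries, 3 libraries each, were V2084D, G2087R and K2025E, all in knockout cells and Flag-tagged, and the knockout cells alone (KO). V2084D is used below for a direct comparison and the rest only for levels. Nothing in the labels tells whether the replicates of a group came from different cultures or clones. The p-values therefore reflect the spread among these libraries only, and the effect of a clone behind a group cannot be told apart from that of its genotype.

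ARID1A is a large DNA-binding subunit of the canonical BAF (SWI/SNF) complex, which uses ATP to move nucleosomes at enhancers and promoters. The heat shock response is a separate program: when unfolded proteins accumulate, heat shock factor 1 is released from chaperones, binds heat shock elements (inverted repeats of GAA and TTC) and raises transcription of HSP70, HSP40, HSP90 and small heat shock proteins. HSP70 proteins bind exposed hydrophobic stretches, HSP40 co-chaperones deliver clients to them, and the ubiquitin ligase STUB1 can direct such clients to the proteasome.

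The changed residue lies near the carboxyl end of the 2285-residue protein. The stretch of the reference transcript below (GRCh38, chr1:26780127-26780186, plus strand, exon 20, a coding exon, codons 2077 to 2096) is shown because the 2 substitutions compared directly fall in it. Capitals mark 2 codons, GTC (valine), whose amino acid the labels give as changed to aspartate in V2084D, and GGA (glycine), changed to glutamate in G2087E. The labels name the amino acid changes, and the bases of the introduced constructs are not given in the sources used here.

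ARID1A: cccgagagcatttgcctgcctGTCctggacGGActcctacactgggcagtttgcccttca

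Total counts per library were 49903852, 36432321 and 51527529 in G2087E and 45894211, 55539529 and 45736601 in WT. Between replicates the variance, averaged over genes, was 28.2 to 81.9 times that of counting in G2087E and 68.5 to 219 times in WT. In that average counting was the smaller part of the spread. Genes with many counts weigh heavily in it, among them ARID1A, with 263120, 534823 and 2748076 counts in WT. The average therefore does not describe single genes or compare the spread of the groups. WT replicate 1 had the highest share of counts in 32 ribosomal protein genes, 5.03%, against 3.36% to 3.83% in the other 5 libraries. Of 16 genes typical of 293 cells, 13 reached a mean of 1 CPM in G2087E and 13 in WT, with summed levels of 1203 to 1505 CPM and 981 to 1348 CPM. Of 15 hepatocyte genes 3 did so in each group (4.14 to 6.58 CPM summed in G2087E, 5.22 to 9.66 CPM in WT), and alpha-fetoprotein (AFP) was at 0 in both. Of 10 fibroblast genes 3 did so in each group and of 10 genes of blood and endothelium 2, with T cell CD3E and haemoglobin HBB at 0. Levels are CPM (counts relative to library size) after TMM scaling over the 18 libraries of 293T, and differences are log2 of G2087E over WT with a standard error (SE) taken from edgeR.

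ARID1A itself (ENSG00000117713, chromosome 1, positions 26693236 to 26782110, plus strand) was read first as a check of the labels. Its transcript stood at 51784, 43783 and 84564 CPM in G2087E replicates 1, 2 and 3, and at 5688, 9277 and 62907 CPM in the WT replicates. The groups overlapped, because WT replicate 3 lay above G2087E replicates 1 and 2. All 6 libraries lay above the 117 to 193 CPM of the KO libraries. Gene counts do not show which codon a library carried. The difference was 1.21 (SE 0.701, 95% interval -0.34 to 2.76, adjusted p = 0.9998 by edgeR). Without WT replicate 3 it was 3.01 with an adjusted p of 6.78e-05, so that library decides whether the amount of ARID1A transcript is called different. STUB1 (ENSG00000103266, chromosome 16, positions 680224 to 682870) was at 279, 217 and 209 CPM in G2087E and 328, 264 and 185 CPM in WT, overlapping values with a difference of -0.14 (SE 0.212), and of 0.07 without WT replicate 1.

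Across all genes, few were called in the main fit. EdgeR called 6 genes higher in G2087E and 1 lower at a Benjamini-Hochberg adjusted p below 0.05, which is 0.0286% and 0.00477% of the genes tested, or 0.0334% in both directions. At an unadjusted p below 0.05 there were 171 higher (0.815%) and 236 lower (1.13%), together 1.94%. That share is below the threshold of 0.05 itself, so the small number of calls does not measure how many genes differ. With the replicate number as a block edgeR gave 1071 such genes, and without WT replicate 3 it gave 1139. All 3 G2087E libraries lay above all 3 WT libraries for 738 genes (3.52%) and below them for 728 (3.47%), together 6.99%. The median difference over all genes was -0.01, with a biological coefficient of variation of 26.6%. The 4 genes with the most counts among those called higher or lower encode or resemble inducible HSP70. Fitting all 18 libraries of 293T together, edgeR gave 0 calls and 340 genes with an unadjusted p under 0.05, while the differences themselves were 6.44 for HSPA6, 2.37 for HSPA1A and -2.87 for BEST1.

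**Figure D1:**
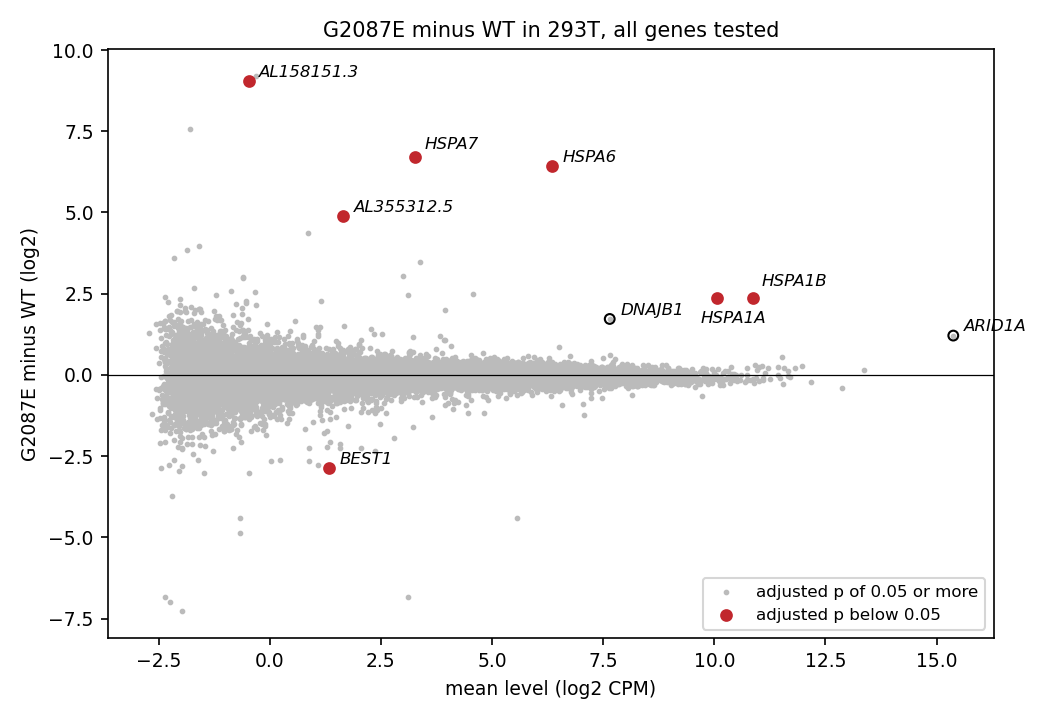
Difference between G2087E and WT in 293T (log2, vertical) against mean level (log2 CPM, horizontal) for the 20971 genes tested, with called genes in red and DNAJB1 and ARID1A ringed. HSPA6, HSPA7, HSPA1A and HSPA1B stand above the cloud, BEST1 at -2.88 is the called gene below it, and several grey genes of low level lie as far out without being called.

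HSP70 transcripts made up 4 of the 6 higher calls. HSPA6 (ENSG00000173110, chromosome 1, positions 161524540 to 161526910, plus strand), a strictly inducible HSP70 that unstressed cells hardly express, was at 199, 92.8 and 196 CPM in G2087E and at 1.12, 0.937 and 3.64 CPM in WT. The groups did not overlap, and the lowest G2087E library was well above the highest WT library. HSPA6 rose by 6.44 (SE 0.547, 95% interval 5.23 to 7.65, adjusted p = 0.00151 by edgeR), and the ratio of the means was 85.5. In bulk RNA a larger share of cells with the transcript and more transcript per cell cannot be told apart.

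HSPA7 (ENSG00000225217, chromosome 1, positions 161606291 to 161608217, plus strand) is an unprocessed pseudogene nearly identical to HSPA6. It was at 25.4, 10.99 and 20.8 CPM in G2087E and 0.151, 0.0867 and 0.320 CPM in WT, again without overlap, and rose by 6.71 (SE 0.480, adjusted p = 0.000402 by edgeR). How reads common to HSPA6 and HSPA7 were assigned is not given in the sources used here, so the split between them is uncertain.

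HSPA1A and HSPA1B (chromosome 6, positions 31815464 to 31817946 and 31827735 to 31830255, plus strand) encode the main stress-inducible HSP70, with nearly identical coding sequences, and the split of reads between them is likewise uncertain. HSPA1A was at 1912, 1217 and 2332 CPM in G2087E and 349, 294 and 416 CPM in WT. HSPA1B was at 3321, 2132 and 4122 CPM in G2087E and 622, 507 and 741 CPM in WT. For both genes every G2087E library exceeded every WT library, with replicate 2 the lowest in each group. HSPA1A rose by 2.37 (SE 0.235) and HSPA1B by 2.36 (SE 0.237), each with an adjusted p of 0.00469 in edgeR, and the ratios of the means were 5.16 and 5.12. Both calls ended without WT replicate 1 (adjusted p = 0.0584 for each, differences of 2.36 and 2.35) or WT replicate 2 (adjusted p = 0.0603 for each, differences of 2.25 and 2.23).

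DNAJB1 (ENSG00000132002, chromosome 19, positions 14514770 to 14529770, minus strand), an HSP40 that stimulates the ATPase of HSP70, overlaps TECR on the opposite strand (85.2 CPM in G2087E, 95.7 CPM in WT). DNAJB1 was at 288, 207 and 439 CPM in G2087E and 70.5, 65.1 and 147 CPM in WT. Its groups did not overlap, and WT replicate 3, the WT library with the most ARID1A, was the highest of its group. The difference of 1.72 (SE 0.343, unadjusted p = 0.000442) was not called in edgeR (adjusted p = 0.636). With the replicate number as a block DNAJB1 rose by 1.76 (SE 0.136, adjusted p = 0.000255), without WT replicate 3 by 2.20 (adjusted p = 0.00136), and DESeq2 called it at an adjusted p of 0.000142.

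**Figure D2:**
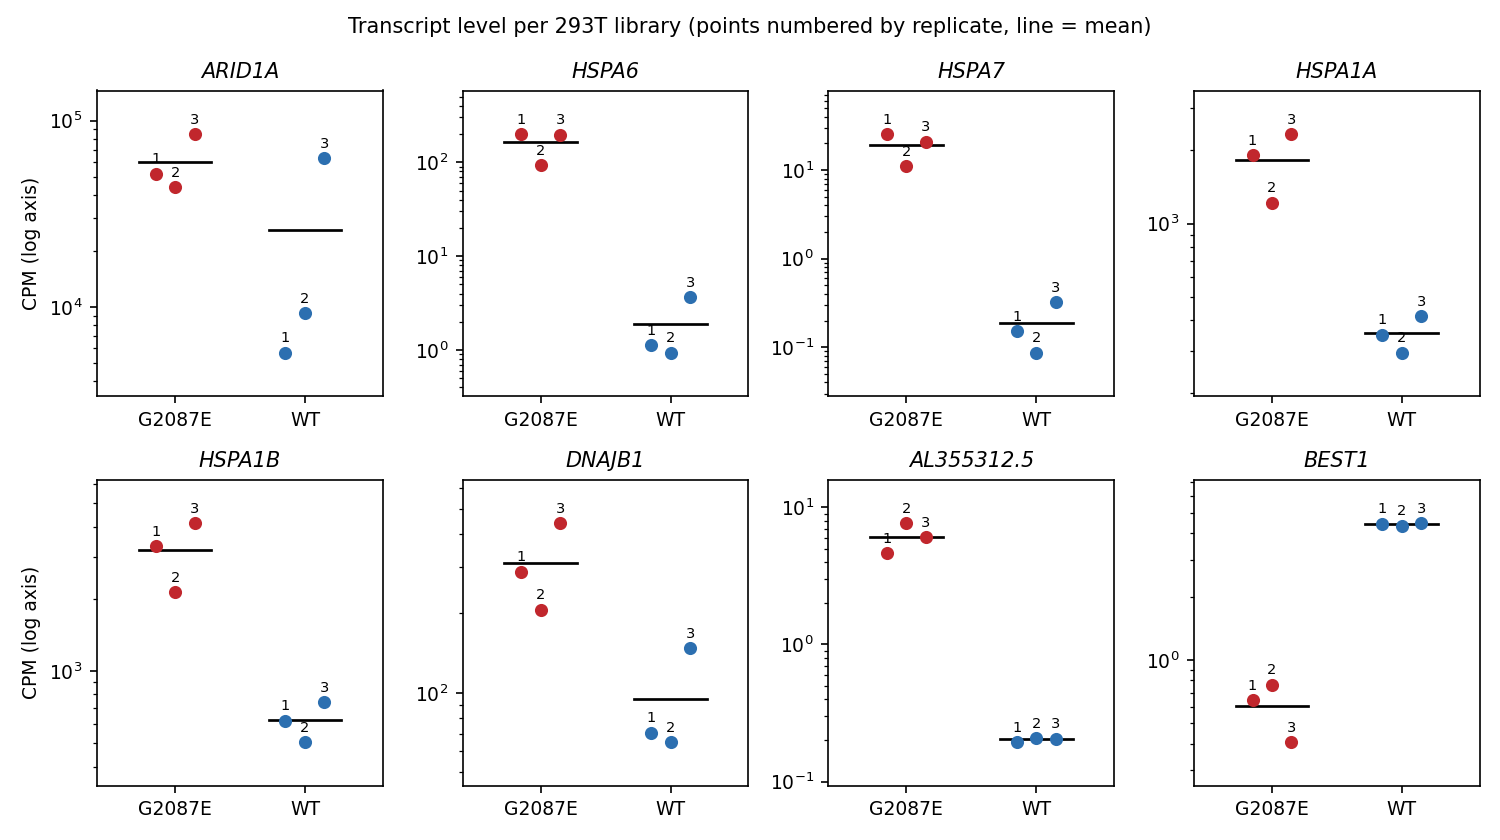
Level in CPM (log axis, each panel with its own range) of ARID1A, 4 HSP70 transcripts, DNAJB1, AL355312.5 and BEST1 in the 3 G2087E (red, left) and 3 WT (blue, right) libraries of 293T, with points numbered by replicate and a line at each group mean. G2087E and WT overlap for ARID1A, where WT replicate 3 reached 62907 CPM, and do not overlap for the other 7 transcripts.

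The promoters of 4 of these genes are printed because HSPA6, HSPA1A and HSPA1B rose together, DNAJB1 did not overlap between groups, and all are known heat shock genes. Each sequence runs from 250 bases before to 50 bases after a RefSeq start site (GRCh38.p14). Capitals mark every match to GAANNTTC or TTCNNGAA, the paired units of a heat shock element. Each of these motifs is its own reverse complement, so a match covers both strands, and matches to the 2 motifs can overlap. HSPA6 (chr1:161524290-161524589, plus strand) held 3 matches, beginning at -180, -74 and -69 from the start site, and the last 2 of these overlap. HSPA1A (chr6:31815293-31815592, plus strand) held 1 at -106 and HSPA1B (chr6:31827488-31827787, plus strand) 1 at -105. DNAJB1 has 3 start sites in the table, with 0, 2 and 1 matches, and the site with 2 matches (at -77 and -47) is shown (chr19:14518348-14518647, minus strand).

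HSPA6: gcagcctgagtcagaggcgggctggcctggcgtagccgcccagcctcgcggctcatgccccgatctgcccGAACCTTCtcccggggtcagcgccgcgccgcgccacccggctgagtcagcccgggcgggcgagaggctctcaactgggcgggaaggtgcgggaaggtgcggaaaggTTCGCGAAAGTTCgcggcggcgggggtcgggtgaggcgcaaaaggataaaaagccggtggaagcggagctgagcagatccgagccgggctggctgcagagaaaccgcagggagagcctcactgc

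HSPA1A: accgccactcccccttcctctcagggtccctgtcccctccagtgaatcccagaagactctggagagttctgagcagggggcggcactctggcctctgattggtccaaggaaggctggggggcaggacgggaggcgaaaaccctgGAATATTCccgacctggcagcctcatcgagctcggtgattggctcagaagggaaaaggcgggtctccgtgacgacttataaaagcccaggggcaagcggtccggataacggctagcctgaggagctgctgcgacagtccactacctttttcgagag

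HSPA1B: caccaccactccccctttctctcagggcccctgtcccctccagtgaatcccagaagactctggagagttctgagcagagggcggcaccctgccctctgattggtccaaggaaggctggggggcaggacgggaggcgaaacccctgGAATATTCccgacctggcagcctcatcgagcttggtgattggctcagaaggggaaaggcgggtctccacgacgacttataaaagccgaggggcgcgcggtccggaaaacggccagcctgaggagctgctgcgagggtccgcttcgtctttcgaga

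DNAJB1: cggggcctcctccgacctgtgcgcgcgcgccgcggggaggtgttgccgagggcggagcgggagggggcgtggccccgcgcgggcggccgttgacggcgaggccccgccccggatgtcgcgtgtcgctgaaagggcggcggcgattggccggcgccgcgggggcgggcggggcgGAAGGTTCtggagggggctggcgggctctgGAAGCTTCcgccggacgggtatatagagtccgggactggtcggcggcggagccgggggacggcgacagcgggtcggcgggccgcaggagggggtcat

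Of 35116 promoters of this length, 13.5% held either motif and 1.71% held at least 2 matches. A match is a description of the letters and not of binding. HSPA8, which encodes the constitutive HSP70, held 4 matches in its window, and HSPH1 and BAG3 held none. HSPB8 held 2, and HSP90AA1 held 0 and 3 at its 2 start sites. HSPA7, BEST1, AL355312.5 and AL158151.3 are not in the promoter table.

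The other chaperones gave smaller values, none called in edgeR. HSPH1 encodes a nucleotide exchange factor that resets HSP70. It was at 215, 193 and 335 CPM in G2087E and 148, 135 and 203 CPM in WT, so WT replicate 3 lay within the G2087E range, with a difference of 0.61 (SE 0.232, unadjusted p = 0.0234). HSP90AA1, the inducible HSP90, was at 3105, 3090.3 and 4435 CPM in G2087E and 2636, 1958 and 2684 CPM in WT, without overlap, with a difference of 0.55 (SE 0.181, unadjusted p = 0.0120). The small heat shock protein HSPB8 and its partner BAG3, which clear aggregates by autophagy, also did not overlap between groups. HSPB8 was at 11.3, 10.04 and 11.5 CPM in G2087E and 7.18, 6.59 and 7.33 CPM in WT (0.64, SE 0.189). BAG3 was at 70.2, 54.7 and 78.8 CPM in G2087E and 49.3, 53.9 and 33.2 CPM in WT (0.58, SE 0.216). Its WT replicate 2 lay just under G2087E replicate 2. HSPA8 overlapped between groups and differed by 0.30 (SE 0.242), HSPA5, the HSP70 of the endoplasmic reticulum, by 0.03 (SE 0.235), and the heat shock factor HSF1 by 0.00 (SE 0.144).

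Counted by family, 3 of 16 HSP70 genes rose and 0 fell, against 0.0286% of all genes called higher, with a list median of 0.15 against -0.01 over all genes. Without WT replicate 1 or WT replicate 2 the count was 1 (HSPA6), and the median was 0.06 without WT replicate 2 and 0.35 without WT replicate 3. Since HSPA1A and HSPA1B share sequence, these 3 are not independent. Of 19 HSP40 genes, 15 genes of HSP90 and its co-chaperones and 16 small heat shock, BAG and heat shock factor genes, edgeR called 0. Unadjusted p-values below 0.05 numbered 1 (DNAJB1, 5.26%), 1 (HSP90AA1, 6.67%) and 2 (HSPB8 and BAG3, 12.5%), all higher, against 0.815% of all genes. DESeq2 called DNAJB1 among them. SIL1 of the last list, not among them, was lower in every G2087E library than in any WT library (-0.29, SE 0.167). The medians of these lists were -0.00, 0.10 and 0.01. Medians were -0.06 for the 10 chaperonins and 0.02 for 20 ubiquitin and protein quality control genes. They were 0.07 for 25 ATF4 targets of amino acid and protein stress and -0.03 for 19 endoplasmic reticulum folding genes. In the main fit these lists had 0 members called and 0 at an unadjusted p below 0.05.

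The HSP70 result is set beside the amount of ARID1A, since WT replicates 1 and 2 had less ARID1A transcript than every G2087E library. HSPA6 was at 3.64 CPM in WT replicate 3, which had more ARID1A transcript than G2087E replicates 1 and 2, where HSPA6 was at 199 and 92.8 CPM. In K2025E, with 13365 to 21646 CPM of ARID1A, HSPA6 was at 0.591 to 1.39 CPM, and in KO at 0.579 to 0.896 CPM. Within G2087R, HSPA6 was at 193 CPM in replicate 3, with 68182 CPM of ARID1A, and at 0.663 and 0.354 CPM in replicates 1 and 2, with 291 and 323 CPM of ARID1A. The part of the ARID1A amount in the HSP70 differences and in that of DNAJB1 was not tested.

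**Figure D3:**
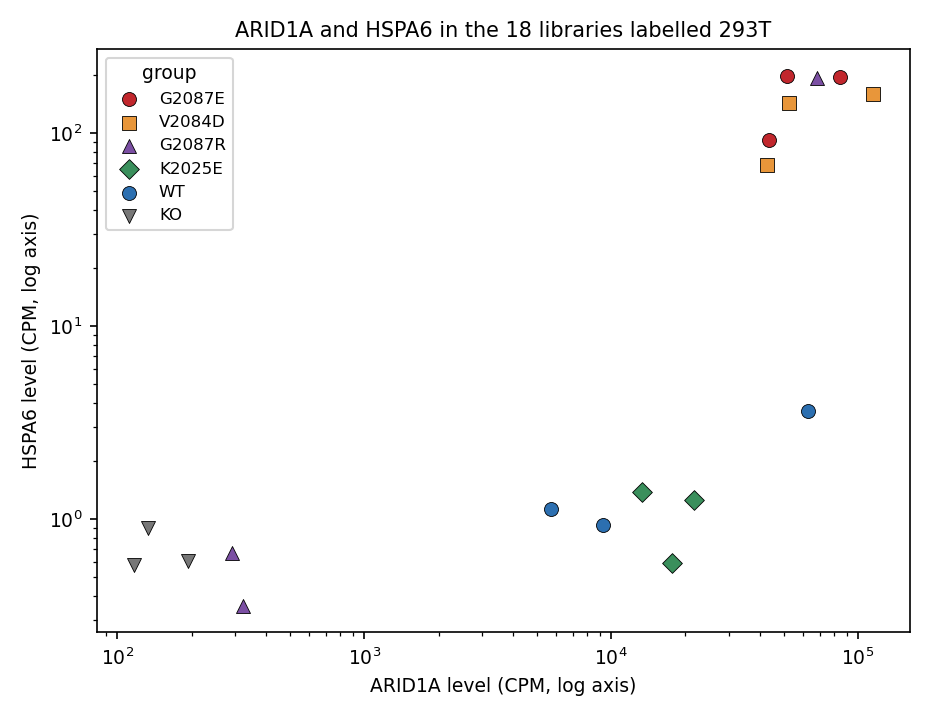
HSPA6 level (CPM, log axis, vertical) against ARID1A level (CPM, log axis, horizontal) in each of the 18 libraries of 293T, with a colour and marker for each group. The 3 G2087E points lie with the 3 V2084D points at 68.4 to 199 CPM of HSPA6, as does G2087R replicate 3 (193 CPM), while G2087R replicates 1 and 2, with little ARID1A, are at 0.663 and 0.354 CPM. The WT library with 62907 CPM of ARID1A is at 3.64 CPM of HSPA6.

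The remaining called transcripts had low levels and overlap other genes or had counts of 0. AL355312.5 (ENSG00000285991, chromosome 6, positions 149817937 to 149896011, minus strand), annotated as protein coding without a named function, was at 4.65, 7.62 and 6.04 CPM in G2087E and 0.195, 0.208 and 0.206 CPM in WT. It rose by 4.89 (SE 0.331, adjusted p = 0.000402 by edgeR). It shares its strand and region with LRP11, a lipoprotein receptor relative at 38.4 CPM in G2087E and 41.3 CPM in WT, so the assignment of reads between them is uncertain. Its level was split within other groups of 293T, at 5.93 CPM in KO replicate 3 and 0.0896 and 0.0826 CPM in KO replicates 1 and 2. AL158151.3 (ENSG00000235007, chromosome 9, positions 129258354 to 129259846, plus strand), a long intergenic non-coding RNA, had 52, 66 and 66 counts in G2087E and 0 in all 3 WT libraries. That is at least 69.2-fold higher, taking a floor of 3 counts over the WT group (adjusted p = 0.0162 by edgeR). AL158151.3 passed the count filter only through its G2087E counts, so leaving out any G2087E library took it out of the test. KO libraries had 76, 30 and 77 counts of it, so here WT and not G2087E stood apart from KO.

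BEST1 (ENSG00000167995, chromosome 11, positions 61949821 to 61965515, plus strand), a calcium-activated anion channel known from the retinal pigment epithelium, was at 0.643, 0.762 and 0.408 CPM in G2087E and 4.45, 4.35 and 4.46 CPM in WT. The groups did not overlap, and BEST1 fell by 2.88 (SE 0.312, adjusted p = 0.00785 by edgeR). It overlaps FTH1, the ferritin heavy chain, on the opposite strand, at 480 CPM in G2087E and 518 CPM in WT, and whether the counts used strand is not given in the sources used here. Within KO it was at 1.03, 1.18 and 4.31 CPM, so values near those of either group occurred among replicates of another group. The calls of AL158151.3 and BEST1 also ended without WT replicate 1 (adjusted p = 0.0584 for each) or WT replicate 2 (adjusted p = 0.0720 for each), with AL158151.3 higher and BEST1 lower in both fits.

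Among the genes with the next smallest p-values and no overlap between groups, none was called by edgeR in the 6 libraries without a block, while DESeq2 called UTP14C lower (adjusted p = 5.76e-07) and STX16-NPEPL1 and DNAJB1 higher. UTP14C, a retrocopy that codes for a nucleolar ribosome biogenesis protein, was at 0.436, 0.871 and 0.306 CPM in G2087E and 4.63, 3.69 and 2.66 CPM in WT (-2.78, SE 0.420, adjusted p = 0.107 by edgeR), and its locus overlaps ALG11 on the same strand. With the replicate number as a block UTP14C fell by 2.84 (adjusted p = 0.0102). CLCN4, a chloride and proton exchanger of endosomes, was at 2.78, 2.91 and 3.94 CPM in G2087E and 1.12, 0.815 and 1.53 CPM in WT (1.48, SE 0.323). The RNA-binding protein CELF3 differed by -1.30 (SE 0.320), the ubiquitin-conjugating enzyme UBE2S of the anaphase-promoting complex by -0.63 (SE 0.172) and the histone gene H4C5 by -1.08 (SE 0.316). SYCP2, a meiotic chromosome axis protein, differed by 0.79 (SE 0.245), METTL7A by -0.68 (SE 0.200) and the sulfotransferase SULT1A4, which has a near-identical copy in SULT1A3, by -1.78 (95% interval -2.88 to -0.67). Also named by this rule were 4 read-through loci (ABHD14A-ACY1 3.03, STX16-NPEPL1 1.07, MSH5-SAPCD1 0.67 and RPL36A-HNRNPH2 -1.13), whose counts depend on how reads of the constituent genes were assigned. ACY1, an aminoacylase within the first of these loci, was at 14.996, 6.80 and 12.1 CPM in G2087E and 30.7, 24.4 and 15.6 CPM in WT (-1.06, SE 0.311), opposite in sign to the read-through. ABHD14A-ACY1 was called with the replicate number as a block (3.33, adjusted p = 0.0157).

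Genes of mitosis and the G2/M phase leaned lower in G2087E. Of 25 tested, 22 had a negative difference against 51.7% of all genes, the median was -0.30 against -0.01, and 7 (28%) had an unadjusted p below 0.05 in the lower direction against 1.13% of all genes. EdgeR called 0 of them, as did DESeq2. All 3 G2087E libraries lay below all 3 WT libraries for 6 of the 25 (24%, against 3.47%). AURKA, a spindle kinase, was at 109, 114 and 122 CPM in G2087E and 151, 129 and 282 CPM in WT (-0.70, SE 0.258). PLK1, which drives mitotic entry, was at 235, 204 and 252 CPM in G2087E and 291, 286 and 305 CPM in WT (-0.36, SE 0.142). KIF20A, a kinesin of cytokinesis, was at 74.7, 72.3 and 83.1 CPM in G2087E and 93.5, 99.6 and 129 CPM in WT (-0.49, SE 0.169). Groups did not overlap for these 3, while securin (PTTG1, -0.66, SE 0.212) overlapped, as replicate 2 of WT at 69.8 CPM lay below G2087E replicate 3 at 71.1 CPM. Just 1 member had an unadjusted p below 0.05 without G2087E replicate 1 (list median -0.28), without G2087E replicate 2 (-0.27) or without WT replicate 3 (-0.14). With WT replicate 2 left out or with the replicate number as a block 11 did (medians -0.39 and -0.25). The 24 genes of DNA replication and G1/S had a median of -0.06, with 0 called and 0 at an unadjusted p below 0.05.

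HOX genes encode transcription factors that pattern the body from head to tail, and in G2087E they leaned higher. Of 38 tested, out of 39 listed, 34 had a positive difference against 48.3% of all genes, with a median of 0.20. The 2 with an unadjusted p below 0.05 (5.26%, against 0.815% of all genes higher) were HOXC10 and HOXA4, and neither was called. HOXC10 was at 37.7, 36.7 and 45.04 CPM in G2087E and 31.1, 27.3 and 23.3 CPM in WT (0.55, SE 0.176). HOXA4 was at 12.7, 12.7 and 12.4 CPM in G2087E and 10.2, 10.2 and 7.07 CPM in WT (0.46, SE 0.205). Groups did not overlap for either, and in all 7 of the 38 (18.4%, against 3.52%) were higher in every G2087E library than in any WT library. The median was 0.06 without WT replicate 3.

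A further 4 lists had signs mostly of 1 kind and medians that lay nearer to 0 without WT replicate 1, the library with the high ribosomal protein share. All 32 ribosomal protein genes were negative (median -0.20, and -0.05 without WT replicate 1), as were 30 of 32 nuclear-encoded respiratory chain genes (-0.18, and -0.06) and 27 of 31 proteasome subunits (-0.13, and -0.05, with -0.07 when WT replicate 3 was left out instead). All 13 mitochondrially encoded mRNAs were positive (0.22, and 0.12 without WT replicate 1). No member of these 4 lists had an unadjusted p below 0.05 in the main edgeR fit. With the replicate number as a block 3 ribosomal protein and 7 respiratory chain genes did, all lower, as did 1071 of all 20971 genes. Without WT replicate 3 there were 7 and 5, with 1 proteasome subunit lower and 3 mitochondrially encoded mRNAs higher, and 1139 of all 20523 genes. The part of WT replicate 1 in the signs of these lists was not tested beyond leaving it out.

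The 27 BAF subunit genes other than ARID1A had a median of 0.01, with 0 called and 0 at an unadjusted p below 0.05 in the main fit. ARID1B, the paralogue that takes the place of ARID1A in the complex, was at 93.5, 91.5 and 95.5 CPM in G2087E and 51.8, 91.4 and 71.4 CPM in WT. Its groups did not overlap, but WT replicate 2 lay just under the lowest G2087E library, and the difference was 0.39 (SE 0.202, unadjusted p = 0.0842). YAP/TEAD targets (24 genes, median 0.10), p53 targets (21, -0.00), AP-1 and immediate early genes (22, -0.04), cholesterol synthesis (21, -0.04), interferon-stimulated genes (19 of 21 listed, -0.06) and NRF2 targets with metallothioneins (14 of 17 listed, -0.02) had 0 members called by edgeR. Unadjusted p-values below 0.05 in these 6 lists numbered 0, 2, 1, 1, 1 and 0 in the main fit. Each list held at most 1 such gene per direction (4.55% to 5.26% of the list), against 0.815% of all genes higher and 1.13% lower. Among the genes with such p-values GDF15, a stress-induced growth factor, differed by 0.75 (SE 0.297) with overlapping groups. The other p53 target among them, TP53INP1, differed by -0.53 (SE 0.206) and was lower in every G2087E library than in any WT library. The antiviral GTPase MX1, also among them, was below 1 CPM in all 6 libraries.

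**Figure D4:**
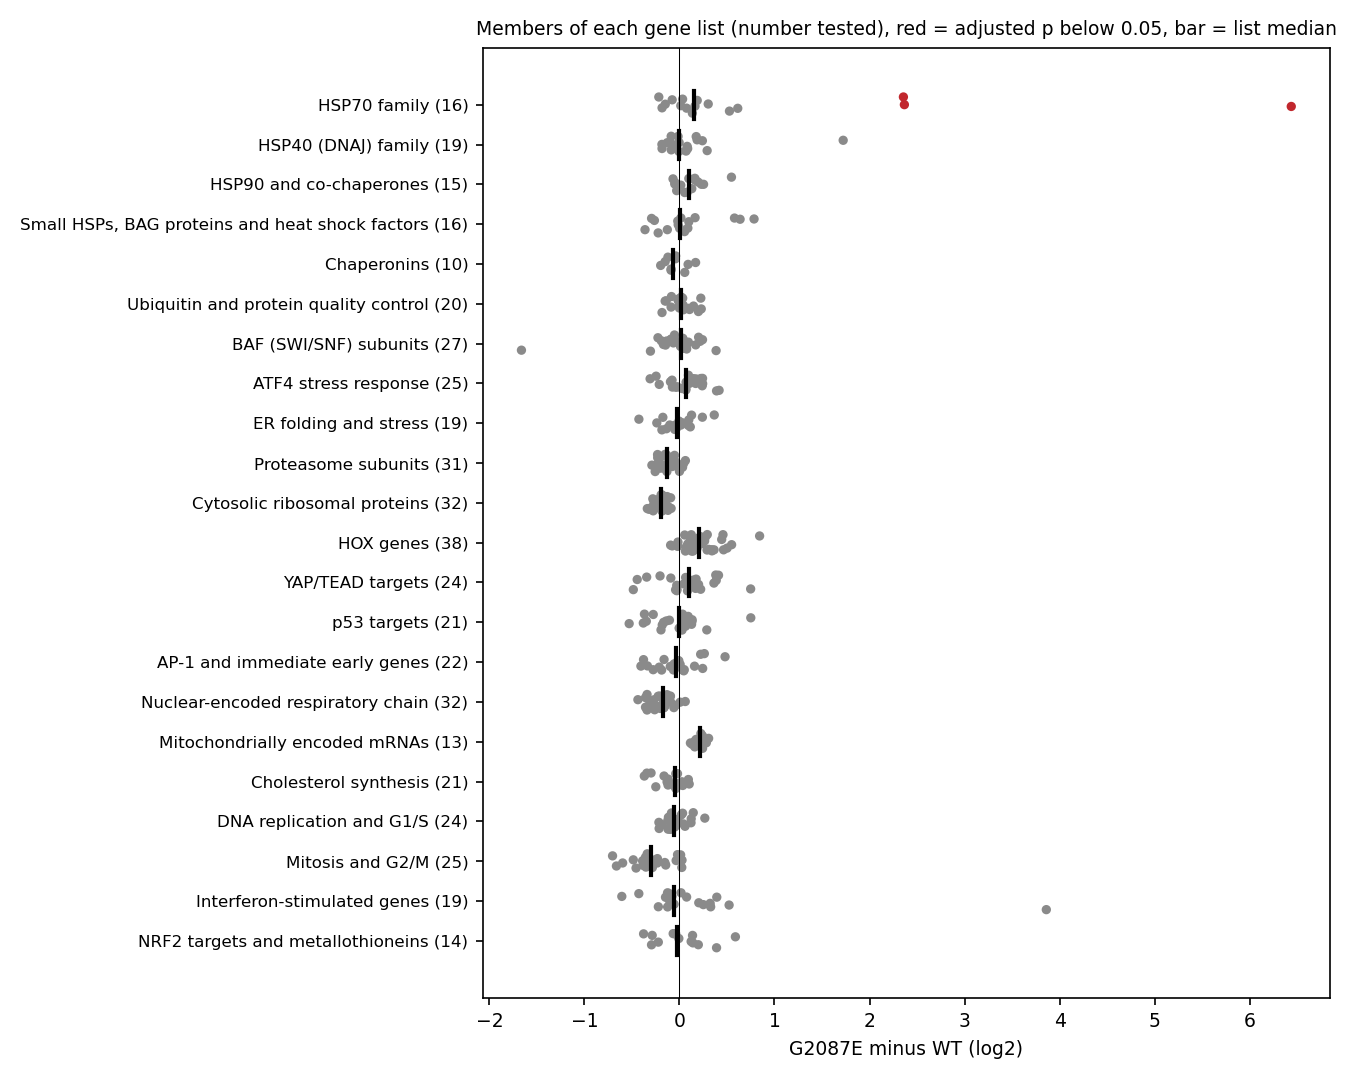
Difference between G2087E and WT (log2, horizontal) of every tested member of 22 gene lists (vertical, number tested in brackets), with called genes in red and a bar at each list median. The 3 called HSP70 genes stand at 2.36 to 6.44, DNAJB1 at 1.72 is the HSP40 gene farthest from 0, and the G2/M list has its median at -0.30.

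Whether G2087E differed from the neighbouring substitution V2084D was tested directly on the 3 libraries of each. Of 20888 genes tested, edgeR called 2 higher (0.00957%) and 1 lower (0.00479%), together 0.0144%, and 163 had an unadjusted p below 0.05 (0.780%). The 10 heat shock genes described here were not among them. HSPA6 was at 199, 92.8 and 196 CPM in G2087E and 143, 68.4 and 160 CPM in V2084D, overlapping values with a difference of 0.39 and a 95% interval of -0.32 to 1.11. HSPA1A was at 1912, 1217 and 2332 CPM in G2087E and 1727, 1021 and 2789 CPM in V2084D, with a difference of -0.02 (interval -0.71 to 0.67), and DNAJB1 differed by 0.16 (interval -0.41 to 0.73). Log2 differences of up to 0.73 for DNAJB1 and 1.11 for HSPA6 lie within these intervals, so the test does not show that the mutants act alike. ARID1A differed by -0.22 (interval -0.94 to 0.50), with 51784, 43783 and 84564 CPM in G2087E and 52325, 42639 and 114749 CPM in V2084D.

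**Figure D5:**
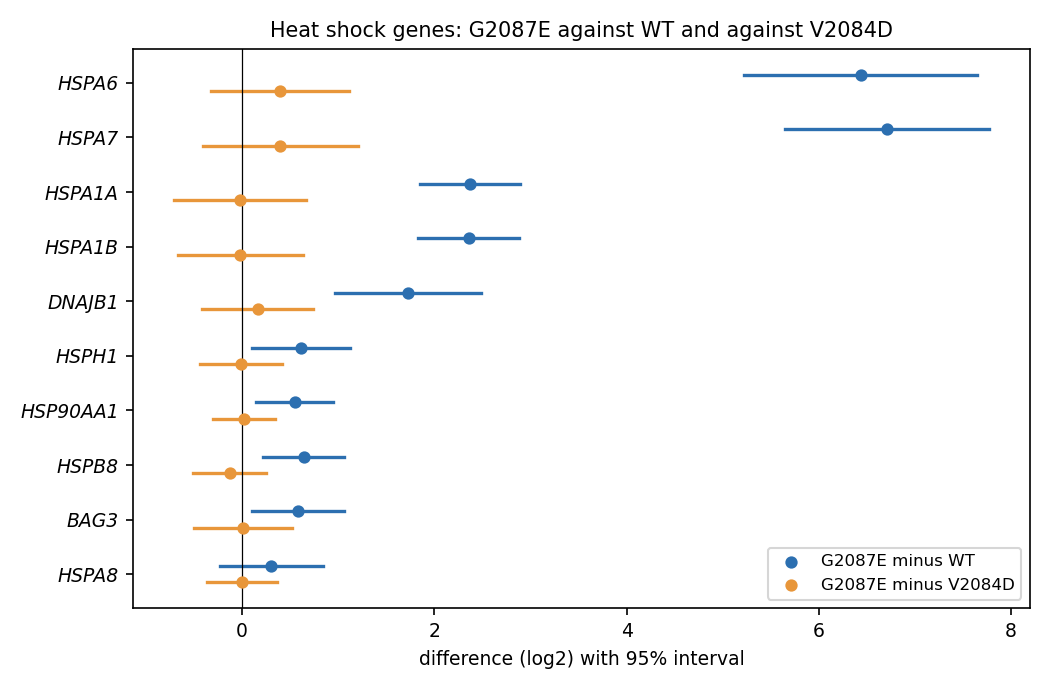
Difference (log2, horizontal) with its 95% interval for 10 heat shock genes (vertical), G2087E minus WT in blue and G2087E minus V2084D in orange. Against WT all intervals but that of HSPA8 lie above 0, with the HSP70 genes at the top farthest out. Apart from HSPA8 the genes were picked by their p-values in that same fit, so this position follows from the choice. Members of the same lists that are not plotted, such as DNAJB14 (-0.09 to 0.68) and BAG1 (-0.80 to 0.08), have intervals that include 0. All 10 intervals against V2084D include 0.

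The 3 genes called between the 2 mutants were AL355312.5, TRIM39-RPP21 and AC006213.2. AL355312.5 was at 4.65, 7.62 and 6.04 CPM in G2087E and 0.181, 0.290 and 0.193 CPM in V2084D (4.78, SE 0.344, adjusted p = 0.000462 by edgeR). TRIM39-RPP21, a read-through locus, had 213, 110 and 345 counts in G2087E and 0 in the 3 V2084D libraries, at least 221-fold higher against a floor of 3 counts over the V2084D group (adjusted p = 0.00199 by edgeR). AC006213.2 had 0 counts in the 3 G2087E libraries and 84, 100 and 54 in V2084D. That is at least 78.4-fold lower against the same floor over the G2087E group (adjusted p = 0.0164 by edgeR). Its call ended with the replicate number as a block, with all 18 libraries in the fit and without G2087E replicate 3. TRIM39-RPP21 and AC006213.2 each passed the count filter only through the group with counts. Leaving out a library of that group therefore took the locus out of the test. Within groups both loci switched between replicates: TRIM39-RPP21 was at 9.06, 0 and 2.84 CPM in WT, and AC006213.2 had 79, 0 and 0 counts in KO. BEST1, lower in G2087E than in WT, differed from V2084D by -1.85 (SE 0.636, unadjusted p = 0.0139), where V2084D replicate 2 was at 4.75 CPM and replicates 1 and 3 at 1.01 and 0.794 CPM.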

How the data were processed

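RNA was sequenced from 293T cells, with total RNA extracted by Trizol and a column kit and libraries made with the NEBNext Ultra II kit, per the labels. The deposited table holds raw counts per gene, made by the authors on genome build GRCh38, per the submitters' processing notes, which also name edgeR without a version. The aligner, counting tool, annotation and strand setting are not given in the sources used here. No normalization by the authors was found in the values, which were whole numbers.

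Counts of the 3 G2087E and 3 WT libraries were fitted alone in R 4.3.3 with edgeR 4.0.16 (TMM scaling, quasi-likelihood F test), on genes with at least 10 counts in at least 3 libraries, with Benjamini-Hochberg adjustment over all genes tested and calls below 0.05. G2087E minus V2084D was fitted the same way. SE was taken as the size of the difference over the root of F, and 95% intervals use the t distribution with the degrees of freedom of the fit. Where a group has only counts of 0, a fold is a bound against 3 counts over that group, and such floors cover counting error only. Positions come from GENCODE 29 by gene identifier (58420 of 67130 matched) and promoters from RefSeq.

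The comparison, gene lists and tests were chosen with earlier results of these data known. The rule names ARID1A and STUB1, called genes, up to 10 symbol-named protein-coding genes per direction by smallest p with no overlap between groups and a mean log2 CPM of at least 1, up to 4 members per list by smallest p, and for V2084D the genes called in either comparison. HSPA8, HSF1, HSPA5 and 3 transcripts called with the block and not in the main fit were chosen after their values were seen. A gene that the rule names is not reported here.

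Replicate numbers were checked for pairing. Deviations from group means of libraries with the same number correlated at 0.276, 0.162 and 0.498 between G2087E and WT. Between G2087E and V2084D they correlated at 0.383, 0.326 and 0.222. The main fits did not pair libraries, and a block for the replicate number was run as an alternative. G2087E replicate 1 correlated better with WT replicate 2 (0.315), so the pairing is uncertain. Alternatives were RLE factors, DESeq2 1.42.0, no filter, 1 CPM in 3 libraries, all 18 libraries, the block, each library left out, ARID1A counts removed and a minimum log2 difference of 1. The fit was tested on simulated data.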

Additional observations from a re-analysis of the deposited data

Results flagged for a closer look

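G2087R replicate 3, a library outside the comparisons of G2087E with WT and V2084D, carried the same HSP70 transcripts at levels above every KO and WT library of 293T. HSPA6 was at 193.0 CPM there, against at most 3.64 CPM in any KO or WT library, and HSPA7 at 22.6 CPM against at most 0.32 CPM. HSPA1A was at 2050 CPM against at most 416 CPM, and HSPA1B at 3730 CPM against at most 741 CPM. ARID1A stood at 68182 CPM in that library and at 291 and 323 CPM in G2087R replicates 1 and 2, where HSPA6 was at 0.663 and 0.354 CPM. G2087R and G2087E change the same residue, and with 1 such library the difference between them was not tested.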

How the results depend on the processing

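For G2087E minus WT the 6 higher and 1 lower calls became 11 and 11 with DESeq2, 0 and 0 with all 18 libraries in the fit, and 9 and 7 with the replicate number as a block. Leaving out each library in turn gave 3 to 10 higher and 0 to 7 lower calls. The lowest counts came without WT replicate 2 (3 and 0) and WT replicate 1 (4 and 0), and the highest without WT replicate 3 (10 higher) and G2087E replicate 3 (7 lower), as single fits of 5 libraries. For G2087E minus V2084D the 2 higher and 1 lower calls became 4 and 2 with DESeq2, 0 and 0 with all 18 libraries (143 at an unadjusted p below 0.05) and 3 and 0 with the replicate block, and ran from 1 to 4 and 0 to 3 with a library left out. RLE factors, both filters, removal of ARID1A counts and the minimum difference gave 6 or 7 higher and 1 lower, and 2 and 1. HSPA6, HSPA7 and AL355312.5 were called in 12 of 13 refits each, with HSPA6 between 6.10 and 7.31, and lost the call with all 18 libraries. HSPA1A, HSPA1B and BEST1 were called in 10 of 13. Over all named genes 15 fits lost a call, 11 gained one and 10 changed the sign of a difference, all of genes not called in any fit. With 1 library left out these log2 differences ran from -0.329 to 0.0656 for STUB1, -0.0060 to 0.369 for CHORDC1, -0.726 to 0.0049 for SDF2L1, -0.504 to 0.00024 for PMVK, -0.509 to 0.0079 for HSD17B7, -0.366 to 0.0363 for ORC1, -0.613 to 0.120 for TF, -0.329 to 0.341 for APOA1 and -0.0241 to 0.505 for PDGFRA. Of the list medians, 29 moved by at least the standard deviation of the list's median level among the 3 G2087E libraries, and 283 did not. The spread among WT libraries was not part of that measure. The causes were not tested. Depth was not compared with other limits for single genes, and BEST1 and AL158151.3 rest on at most 251 counts in a library.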

Other observations

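With the replicate number as a block, edgeR called 9 transcripts that were not called in the main fit. ARRDC3, IDI2-AS1 and AC012184.2 among them were chosen after their values were seen. ARRDC3, an alpha-arrestin that directs membrane proteins to ubiquitin ligases, was at 9.06, 10.2 and 21.8 CPM in G2087E and 23.1, 22.2 and 47.2 CPM in WT. The groups did not overlap, but G2087E replicate 3 lay just under WT replicate 2, and replicate 3 was the highest of each group. ARRDC3 fell by 1.20 under the block (SE 0.144, adjusted p = 0.0102), against -1.17 and an adjusted p of 0.9998 without it. The antisense RNA IDI2-AS1 was at 0.684, 1.06 and 1.20 CPM in G2087E and 3.24, 3.23 and 5.84 CPM in WT, and fell by 2.04 under the block (adjusted p = 0.0191), with an adjusted p of 0.280 without it. AC012184.2 had 1.08, 0.871 and 2.73 CPM in G2087E and 0 in the WT libraries, and so passed the count filter only through G2087E. Its adjusted p in edgeR was 0.0102 under the block and 0.0509 in the main fit. IDI2-AS1 and AC012184.2 were also called by DESeq2, and AC012184.2 by edgeR with RLE factors or without WT replicate 3.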
